A study of Mus musculus with 4 samples.

Results

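Osteoclasts are the multinucleated cells that resorb bone, and the 10 genes described here encode their proteases, fusion proteins and receptors. The genes were chosen by name as known osteoclast genes, namely Ctsk, Acp5, Mmp9, Atp6v0d2, Ocstamp, Dcstamp, Oscar, Tnfrsf11a, Itgb3 and Calcr. All 10 were found among the 45706 genes of the count table. They were followed across 4 libraries of regenerating mouse digit tip taken 14 days after amputation, with 1 library for each genotype. The genotypes were Mmu.Sp6 cKO, Mmu.Sp8 cKO, Mmu.Sp6+Sp8 cKO (conditional knockouts of 1 or both of these zinc-finger transcription factors of the epidermis) and wildtype. The study asks what these epidermal factors do in digit regeneration, and the osteoclast genes bear on the phase in which the stump bone is resorbed.

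The knockouts were induced with tamoxifen at 75 mg/kg, injected daily over 5 days, and digits were amputated after a rest of 5 days. The sources used here do not state the Cre driver, the age of the mice, how many animals or digits made up a library, or whether wildtype mice received tamoxifen. The protocols describe cuts through the distal and through the middle phalanx without saying which was made here. The labels put the 3 cKO libraries in batch 1 and wildtype in batch 3. Knockout and batch therefore cannot be told apart wherever wildtype is used, whereas the cKO libraries can be compared with each other inside batch 1. With 1 library per genotype nothing was tested against variation between animals, and every interval below covers counting error only.

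Osteoclasts form when precursors of the monocyte and macrophage lineage receive the cytokines CSF1 and RANKL, fuse into multinucleated cells and attach tightly to bone. They pump acid and release proteases into the sealed space beneath them, which dissolves the mineral and digests the collagen. In the regenerating mouse digit tip, resorption of the stump bone comes before the blastema forms and new bone is laid down.

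Promoter sequences of 5 of the 10 genes were found in the RefSeq table on GRCm38.p6, and 3 are shown because they span the range of responses below. Oscar and Ctsk were higher in the Sp8 cKO library than in wildtype by more than 2-fold, whereas Tnfrsf11a differed by no more than 1.30-fold between any 2 libraries. Each window runs from 250 bases before to 50 bases after the annotated start, 5′ to 3′ on the gene's strand. Capitals mark matches on either strand to the NFAT core GGAAA, the PU.1 core GAGGAA or the E-box CATGTG.
Oscar (chr7:3616108-3616407, minus strand): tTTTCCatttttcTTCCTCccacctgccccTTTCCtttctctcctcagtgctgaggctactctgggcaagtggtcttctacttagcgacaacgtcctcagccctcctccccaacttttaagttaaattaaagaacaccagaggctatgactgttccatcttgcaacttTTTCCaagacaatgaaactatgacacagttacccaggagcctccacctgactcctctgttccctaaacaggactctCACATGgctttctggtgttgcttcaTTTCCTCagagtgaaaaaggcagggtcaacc
Ctsk (chr3:95498960-95499259, plus strand): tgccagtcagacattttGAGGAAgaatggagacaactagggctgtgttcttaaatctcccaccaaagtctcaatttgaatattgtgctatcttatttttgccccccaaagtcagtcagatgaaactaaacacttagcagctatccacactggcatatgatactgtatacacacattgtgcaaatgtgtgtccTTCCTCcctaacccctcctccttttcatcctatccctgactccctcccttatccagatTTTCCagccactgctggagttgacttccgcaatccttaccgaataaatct
Tnfrsf11a (chr1:105780473-105780772, plus strand): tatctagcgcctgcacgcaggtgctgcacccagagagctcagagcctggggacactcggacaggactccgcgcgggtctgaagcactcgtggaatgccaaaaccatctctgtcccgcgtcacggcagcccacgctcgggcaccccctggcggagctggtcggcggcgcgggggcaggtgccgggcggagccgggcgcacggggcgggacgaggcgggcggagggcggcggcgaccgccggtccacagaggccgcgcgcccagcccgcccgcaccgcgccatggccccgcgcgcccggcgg

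The Oscar window held 4 matches to the NFAT core and 2 to the PU.1 core, with 1 of each overlapping just downstream of the start, and 1 CATGTG. The Ctsk window held 1 NFAT core and 2 PU.1 cores, and the Tnfrsf11a window held no match to any motif searched. These letters are common. GGAAA occurred in 61.3% of all 32851 windows, GAGGAA in 28.3% and CATGTG in 14.2%. The AP-1 motif TGANTCA, found in 7.81% of all windows, and the E-box CACGTG, found in 7.15%, occurred in none of the 8 windows of the 5 matched genes. The Tnfrsf11a window was 76.7% G or C, higher than 97.3% of all windows, while the Oscar and Ctsk windows were at 47.3% and 43.7%, below the median of 52.7%. Of the matched genes not shown, Acp5 had 1, 1 and 2 NFAT cores in its windows, and Calcr had 0 and 1. The Acp5 window with 2 NFAT cores also held 1 CATGTG. The highest library of Acp5 was only 1.64-fold its lowest. Whether the motifs relate to the levels was not tested.

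Library totals lay between 12588518 and 21834910 estimated counts, the largest being wildtype. Levels are given as CPM, the usual RNA-seq unit of counts relative to library size, with library sizes scaled by trimmed mean of M-values (TMM) factors. A gene was called higher or lower in 1 library than in another by a size rule. The log2 ratio had to reach 1 or -1, 1 of the libraries had to hold at least 1 CPM, and the 95% counting interval of the ratio (Clopper-Pearson, exact) had to exclude 1. Of the 10 osteoclast genes, 9 reached 1 CPM in some library and 8 did so in all 4. The log2 ratios use a prior count of 2, which pulls those of genes with few counts towards 0, whereas folds are plain ratios of CPM. The targeted genes followed the labels in part, with Sp6 at 29.2 CPM in Sp6 cKO and 57.8 CPM in Sp6+Sp8 cKO against 97.7 CPM in wildtype, and Sp8 at 16.8 CPM in Sp8 cKO and 13.4 CPM in Sp6+Sp8 cKO against 63.9 CPM. Keratins of skin (Krt5 and Krt14) and bone collagen (Col1a1) were abundant in all 4 libraries, at no less than 1679 CPM.

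The osteoclast genes stood lowest in the wildtype library for 9 of the 10 genes and highest in Sp6+Sp8 cKO for 7. Of all genes that reached 1 CPM in some library, 23.9% were lowest in wildtype and 29.4% highest in Sp6+Sp8 cKO. These are ranks of levels and ignore counting error. For Acp5, Oscar and Dcstamp, wildtype did not differ from Sp6 cKO beyond counting error. For Acp5, Mmp9, Ocstamp and Itgb3, Sp6+Sp8 cKO did not differ from Sp8 cKO beyond it. Summed over the 10 genes, the level was 269 CPM in Sp6 cKO, 398 CPM in Sp8 cKO and 395 CPM in Sp6+Sp8 cKO, against 160.5 CPM in wildtype. The sum was thus 1.67-fold (95% interval 1.60 to 1.75), 2.48-fold (2.37 to 2.59) and 2.46-fold (2.36 to 2.56) that of wildtype. Without Mmp9, which has other cell sources, the sums were 1.33-fold, 1.85-fold and 1.77-fold that of wildtype. Because these are bulk samples, more osteoclasts, more RNA per osteoclast and RNA of these genes from other cells cannot be told apart. Nor can knockout and batch be told apart in these ratios.

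**Figure D1:**
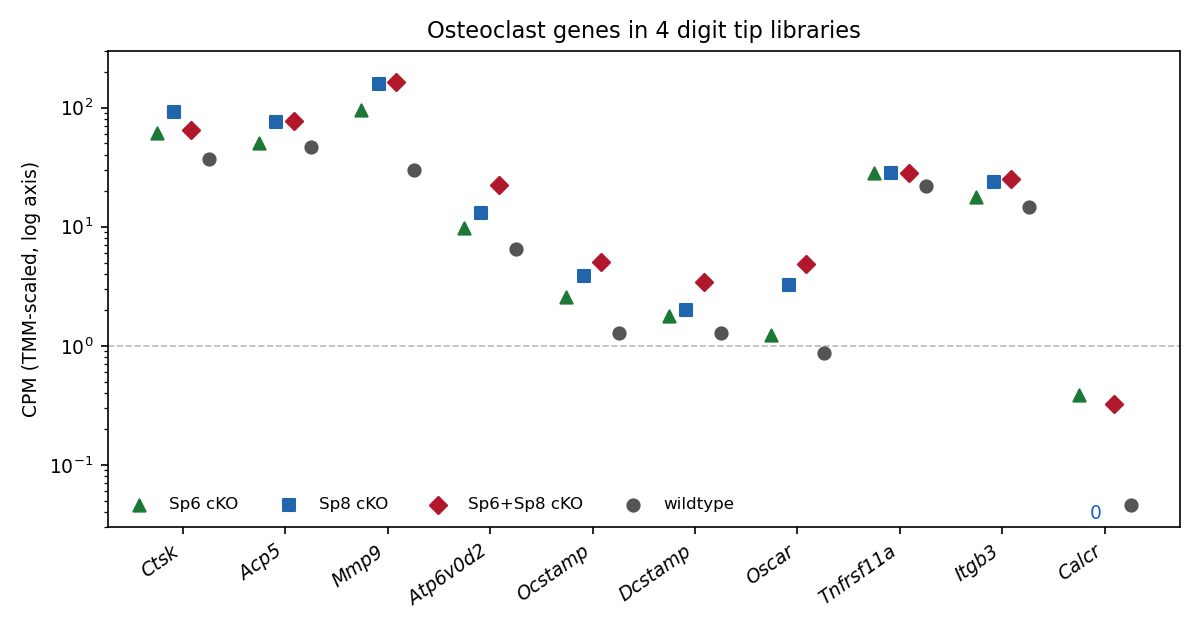
CPM of the 10 osteoclast genes (log axis) in each library, with the dashed line at 1 CPM and a written 0 where no count was found. For 9 of the 10 genes the wildtype point lies below the 3 cKO points, and Calcr stays under 1 CPM in every library.

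The genes of the secreted enzymes were the most abundant of the 10 per kilobase of annotated exon in every library. Mmp9 (ENSMUSG00000017737, GRCm38 chr2:164940780-164955850) encodes gelatinase B, which cleaves denatured collagen and is also made by neutrophils and keratinocytes. Its level was 94.98 CPM in Sp6 cKO, 156 CPM in Sp8 cKO and 164 CPM in Sp6+Sp8 cKO, against 30.1 CPM in wildtype. All 3 cKO libraries thus stood apart from wildtype, by 3.15-fold (95% interval 2.87 to 3.47), 5.19-fold (4.74 to 5.67) and 5.46-fold (5.00 to 5.95). Mmp9 was the only one of the 10 genes past the size rule in each of the 3 comparisons with wildtype. Sp8 cKO and Sp6+Sp8 cKO did not differ from each other beyond counting error, and both exceeded Sp6 cKO.

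Ctsk (ENSMUSG00000028111, chr3:95499256-95509362) encodes cathepsin K, the main collagen-degrading protease of osteoclasts. It stood at 61.7 CPM in Sp6 cKO, 92.6 CPM in Sp8 cKO and 64.3 CPM in Sp6+Sp8 cKO, against 37.1 CPM in wildtype. Sp8 cKO was the highest library, 2.49-fold above wildtype (95% interval 2.28 to 2.73) and past the size rule. Sp6 cKO and Sp6+Sp8 cKO lay 1.66-fold and 1.73-fold above wildtype, under the rule, and could not be separated from each other by counting error. Ctsk was the 1 osteoclast gene that was clearly lower in Sp6+Sp8 cKO than in Sp8 cKO, at 0.694-fold (95% interval 0.637 to 0.756).

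Acp5 (ENSMUSG00000001348, chr9:22126727-22135711) encodes tartrate-resistant acid phosphatase, the classical stain for osteoclasts. Its level was 50.2 CPM in Sp6 cKO, 74.9 CPM in Sp8 cKO and 77.0 CPM in Sp6+Sp8 cKO, against 46.9 CPM in wildtype. The libraries formed 2 pairs, Sp8 cKO with Sp6+Sp8 cKO and Sp6 cKO with wildtype, and within each pair the difference was inside the counting interval. The folds of 1.60 and 1.64 against wildtype for the higher pair excluded 1 but did not reach the size rule. A gene on the opposite strand, 6530413G14Rik, overlaps Acp5. The libraries were made strand-specific, and the sources used here do not state whether the counting used strand.

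Per kilobase of annotated exon, the order of these 3 genes differed between libraries. Mmp9 was second to Ctsk in Sp6 cKO and Sp8 cKO, at 26.8 against 40.8 and at 44.1 against 61.2 CPM per kilobase. In Sp6+Sp8 cKO, Mmp9 was first at 46.4 CPM per kilobase, with Ctsk at 42.5 and Acp5 at 37.9. In wildtype, Mmp9 came last of these at 8.51 CPM per kilobase, with Ctsk at 24.5 and Acp5 at 23.1.

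The genes for cell fusion and acid transport were less abundant per kilobase and were highest in Sp6+Sp8 cKO. Ocstamp (ENSMUSG00000027670, chr2:165393760-165400405) and Dcstamp (ENSMUSG00000022303, chr15:39745930-39760938) encode related multipass membrane proteins without which mouse osteoclast precursors do not fuse. Ocstamp had 2.56 CPM in Sp6 cKO, 3.89 CPM in Sp8 cKO and 5.00 CPM in Sp6+Sp8 cKO, against 1.29 CPM in wildtype. The folds of 3.02 in Sp8 cKO (95% interval 1.86 to 4.99) and 3.89 in Sp6+Sp8 cKO (2.49 to 6.22) passed the size rule. Sp6 cKO, at 1.99-fold (1.16 to 3.41) and a log2 ratio of 0.92, did not. Sp6+Sp8 cKO was not separated from Sp8 cKO by counting error, at 1.29-fold (0.888 to 1.88).

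Dcstamp stood at 1.78 CPM in Sp6 cKO, 1.98 CPM in Sp8 cKO and 3.44 CPM in Sp6+Sp8 cKO, against 1.29 CPM in wildtype. Sp6+Sp8 cKO alone lay beyond counting error above wildtype, at 2.67-fold (95% interval 1.66 to 4.39), and passed the rule. It rests on 53 counts in that library and 28 in wildtype. The intervals for Sp6 cKO (0.762 to 2.49) and Sp8 cKO (0.862 to 2.74) both included 1.

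Atp6v0d2 (ENSMUSG00000028238, chr4:19876841-19922605) encodes the d2 subunit of the proton pump that acidifies the resorption space, and mice that lack it form fewer fused osteoclasts. Its level was 9.69 CPM in Sp6 cKO, 12.9 CPM in Sp8 cKO and 22.3 CPM in Sp6+Sp8 cKO, against 6.44 CPM in wildtype. Ranked by level, each library differed from the next beyond counting error. The double knockout was 3.46-fold above wildtype (95% interval 2.84 to 4.24) and past the rule. Sp8 cKO, at 2.01-fold with a log2 ratio of 0.99, fell just short of it.

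The widely expressed d1 subunit gene, Atp6v0d1, did not pass the rule in any comparison. Its log2 ratios to wildtype were 0.13 for Sp6 cKO, 0.08 for Sp8 cKO and -0.19 for Sp6+Sp8 cKO. For every 100 counts of Atp6v0d1 the Sp6 cKO library held 17.1 of Atp6v0d2, the Sp8 cKO library 23.7 and the Sp6+Sp8 cKO library 49.5, against 12.5 in wildtype. The interval in Sp6+Sp8 cKO, 43.4 to 56.4, lay above those of the other libraries, the highest of which ended at 28.2.

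Among the receptors, Oscar differed most and Tnfrsf11a least. Oscar (ENSMUSG00000054594, chr7:3609813-3616157) encodes an immunoglobulin-like receptor that binds exposed collagen and costimulates osteoclast formation through the adaptor encoded by Fcer1g. It had 16 counts in Sp6 cKO, 41 counts in Sp8 cKO and 75 counts in Sp6+Sp8 cKO, against 19 in the deeper wildtype library, or 1.24, 3.25 and 4.87 CPM against 0.874 CPM. Oscar was 3.72-fold above wildtype in Sp8 cKO (95% interval 2.11 to 6.79) and 5.58-fold in Sp6+Sp8 cKO (3.34 to 9.78), while the interval for Sp6 cKO included 1. Wildtype was below 1 CPM, so Oscar entered each comparison with wildtype through the cKO library only.

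Tnfrsf11a (ENSMUSG00000026321, chr1:105780718-105847981) encodes RANK, the receptor for RANKL. It stood at 28.4 CPM in Sp6 cKO, 28.3 CPM in Sp8 cKO and 28.0 CPM in Sp6+Sp8 cKO, against 21.9 CPM in wildtype. The 3 cKO libraries could not be separated, and each lay between 1.28-fold and 1.30-fold above wildtype, beyond counting error but far from the size rule. RANK thus varied less across the libraries than any other of the 9 genes that reached 1 CPM, with the highest library 1.30-fold the lowest.

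Itgb3 (ENSMUSG00000020689, chr11:104608000-104670476) encodes the integrin beta 3 chain, which pairs with the alpha V chain to anchor osteoclasts to bone and with the Itga2b product on platelets. Its level was 17.7 CPM in Sp6 cKO, 23.7 CPM in Sp8 cKO and 25.2 CPM in Sp6+Sp8 cKO, against 14.5 CPM in wildtype. No fold reached the size rule, the highest being 1.74 (95% interval 1.49 to 2.02) in Sp6+Sp8 cKO. Itgav, its partner in osteoclasts, had log2 ratios of 0.06, 0.04 and 0.30 in the same order, and platelet Itga2b had -0.51, -0.36 and -0.76.

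Calcr (ENSMUSG00000023964, chr6:3685680-3764714) encodes the calcitonin receptor of mature osteoclasts, through which calcitonin stops resorption. It had 5 counts in Sp6 cKO, 0 counts in Sp8 cKO and 5 counts in Sp6+Sp8 cKO, against 1 in wildtype. The 0 allows a level of up to 0.238 CPM, and no difference was detectable at this depth. A defining marker of mature osteoclasts was therefore near 0 in every library, while Ctsk and Acp5 were plainly present.

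**Figure D2:**
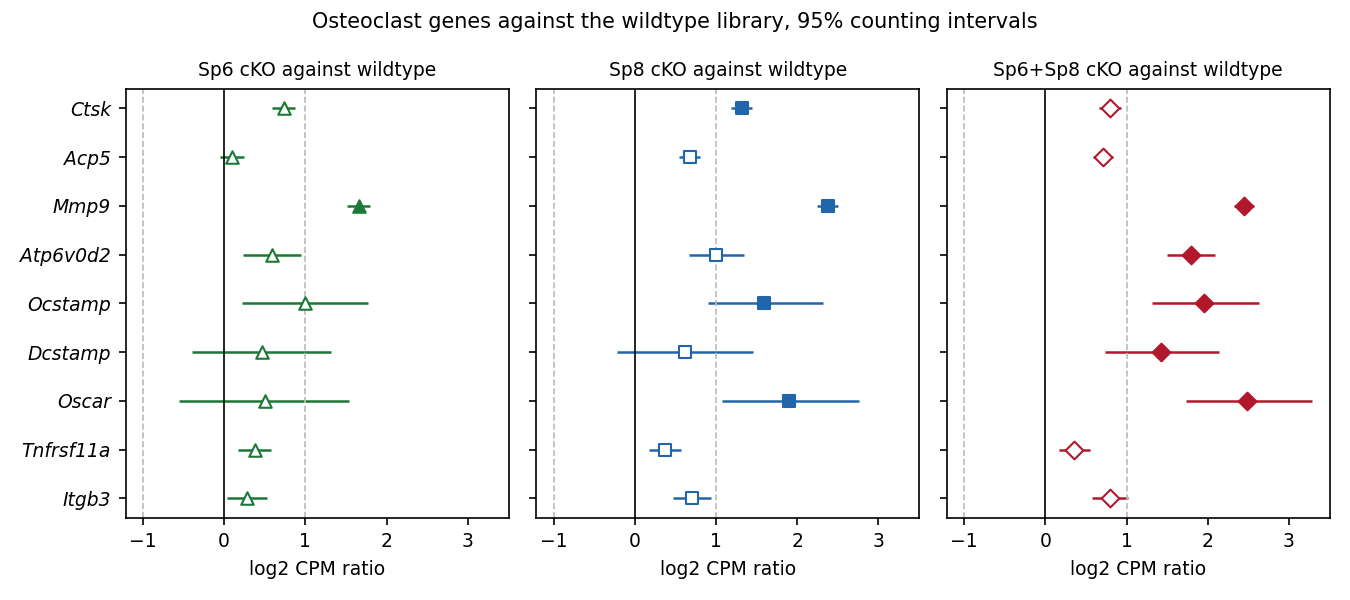
Log2 ratio of CPM to the wildtype library for 9 osteoclast genes, with Calcr left out for its low counts. Bars are exact 95% counting intervals, filled points passed the size rule, and dashed lines mark log2 ratios of -1 and 1. The Sp6 cKO panel has 1 filled point, the Sp8 cKO panel 4 and the Sp6+Sp8 cKO panel 5.

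Counted together, 1 of the 10 genes was higher past the size rule in Sp6 cKO than in wildtype, where 2.24% of the 16884 genes compared were. In Sp8 cKO 4 of the 10 were higher, against 2.27% of all genes, and in Sp6+Sp8 cKO 5 of the 10, against 2.84%. None was lower in any of these comparisons, where 2.16%, 1.55% and 2.95% of all genes were. The median log2 ratio of the 10 genes was 0.52 for Sp6 cKO, 0.85 for Sp8 cKO and 1.36 for Sp6+Sp8 cKO, and that of all genes was -0.01, -0.01 and -0.02. Without Calcr, which stayed under 1 CPM, the medians of the osteoclast genes were 0.45, 0.99 and 1.34. All 3 comparisons share the wildtype library, so its level enters every one of these values.

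Within batch 1, without the wildtype library, Sp6 cKO was the lowest of the 3 libraries for 8 of the 10 genes, as it was for 29.3% of all genes. This too is a rank. For Ctsk, Ocstamp and Dcstamp the next library did not differ from Sp6 cKO beyond counting error. Sp6+Sp8 cKO exceeded Sp6 cKO past the rule for Oscar, at 3.93-fold (95% interval 2.27 to 7.22), and for Atp6v0d2, at 2.30-fold (1.87 to 2.85). That made 2 of the 10 genes higher and 0 lower, against 1.89% and 2.08% of all genes. Sp8 cKO exceeded Sp6 cKO past the rule for Oscar alone, at 2.62-fold (1.44 to 5.01), and none was lower, against 1.75% of all genes higher and 1.35% lower. Between Sp6+Sp8 cKO and Sp8 cKO no gene of the 10 passed the rule, against 1.88% of all genes higher and 2.8% lower. There the sums over the 10 genes differed by 0.992-fold (0.956 to 1.03), although the median log2 ratio was 0.22, with the abundant Ctsk lower and the scarcer Atp6v0d2, Dcstamp and Oscar beyond counting error higher.

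The proportions among the osteoclast genes also differed between libraries, and these do not depend on scaling. For every 100 counts of Ctsk, the Sp6 cKO library held 154 counts of Mmp9, the Sp8 cKO library 169 and the Sp6+Sp8 cKO library 256, against 81.2 in wildtype. The intervals of the 3 cKO libraries all lay above that of wildtype, 73.1 to 90.1. Oscar had 2.01, 3.52 and 7.58 counts for every 100 of Ctsk, against 2.35 in wildtype, so that here Sp6+Sp8 cKO stood apart and Sp6 cKO and wildtype overlapped.

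**Figure D3:**
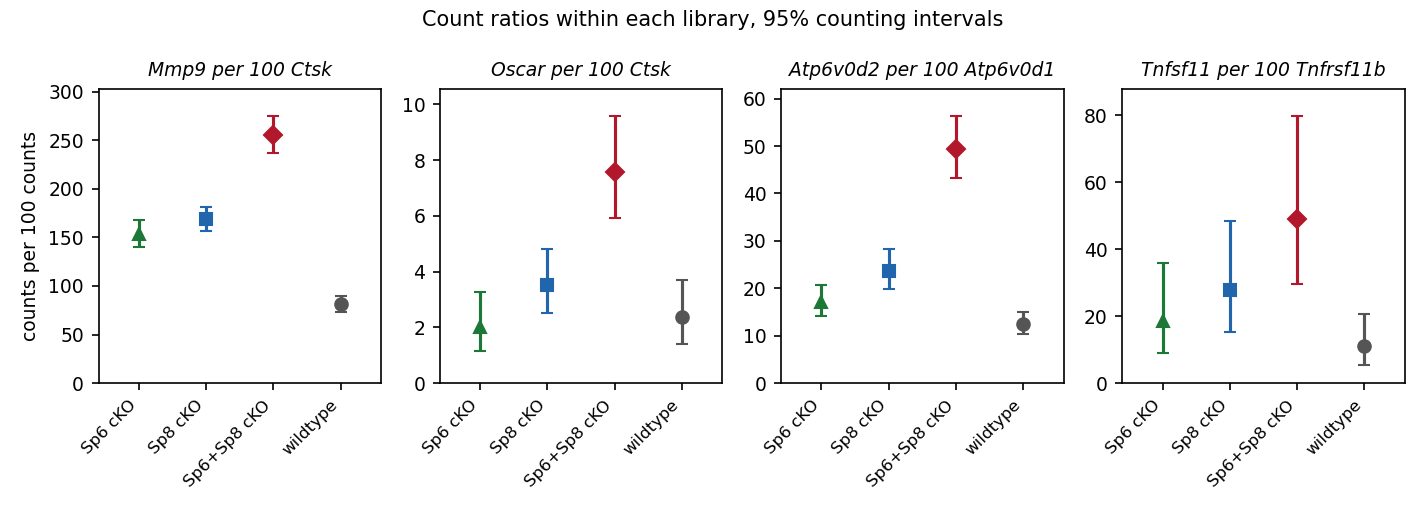
Counts of a gene for every 100 counts of a second gene in the same library, with exact 95% counting intervals. The Mmp9 to Ctsk ratio is higher in all 3 cKO libraries than in wildtype, whereas the Oscar to Ctsk and Atp6v0d2 to Atp6v0d1 ratios are highest in Sp6+Sp8 cKO. The Tnfsf11 to Tnfrsf11b ratio, described with the ligands, has wide intervals.

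The difference between libraries labelled with and without the Sp8 deletion can be set side by side in both Sp6 backgrounds, as Sp8 cKO over wildtype (across batches) and Sp6+Sp8 cKO over Sp6 cKO (within batch 1). The second pair is not matched in Sp6, which stood at 57.8 CPM in Sp6+Sp8 cKO against 29.2 CPM in Sp6 cKO, so its ratios are not those of Sp8 alone. For Oscar the log2 ratios were 1.76 and 1.87, for Atp6v0d2 0.99 and 1.19, for Acp5 0.67 and 0.62, and for Itgb3 0.70 and 0.51. The ratios differed more for Mmp9, at 2.37 and 0.79, Ctsk, at 1.32 and 0.06, Ocstamp, at 1.505 and 0.93, and Tnfrsf11a, at 0.37 and -0.02, each larger over wildtype. Dcstamp had the larger one over Sp6 cKO, at 0.58 and 0.90, and Calcr had too few counts. The difference was not tested.

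The cytokines that drive osteoclast formation were then examined. Tnfsf11 encodes RANKL, and Tnfrsf11b encodes osteoprotegerin, the soluble decoy receptor that blocks it. Tnfsf11 had 11 counts in Sp6 cKO, 17 counts in Sp8 cKO and 26 counts in Sp6+Sp8 cKO, against 11 in wildtype, or 0.853, 1.35 and 1.69 CPM against 0.506 CPM. It passed the size rule in Sp8 cKO, at 2.67-fold (95% interval 1.18 to 6.30), and in Sp6+Sp8 cKO, at 3.34-fold (1.59 to 7.49). Wildtype was below 1 CPM, so Tnfsf11 entered these comparisons through the cKO library only. Tnfrsf11b had log2 ratios of -0.01, 0.07 and -0.40 and did not pass. For every 100 counts of Tnfrsf11b the Sp6 cKO library held 18.6 of Tnfsf11, the Sp8 cKO library 27.9 and the Sp6+Sp8 cKO library 49.1, against 11 in wildtype. Only the interval in Sp6+Sp8 cKO, 29.4 to 79.9, lay clear of the wildtype interval, 5.32 to 20.5.

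In the list of 7 ligand and decoy receptor genes, 1 was higher in Sp6 cKO and 2 in each of the other cKO libraries, beside 2.24%, 2.27% and 2.84% of all genes. These were Tnfsf11 and Il1b, an inflammatory cytokine that promotes resorption. Il1b stood at 2.02, 1.67 and 2.47 CPM against 0.552 CPM in wildtype, with log2 ratios of 1.66, 1.40 and 1.93. Both had 11 or 12 counts in wildtype, and Il1b too passed the 1 CPM minimum through the cKO libraries only. Csf1, which keeps precursors alive, had ratios of 0.09, 0.27 and 0.10. Its receptor gene Csf1r, shared by macrophages and osteoclast precursors, had ratios of 0.12, 0.26 and 0.02. Of the 8 receptor and adaptor genes only Pirb passed the rule, at 1.12 in Sp6 cKO and 1.24 in Sp8 cKO. It has close relatives in the Pira family, so its counts are uncertain.

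Inside the cell, RANK signals through TRAF6 and calcium to NFATc1, the transcription factor that switches on osteoclast genes. None of the 14 signalling and transcription factor genes passed the rule against wildtype in any cKO library. Of all genes, 2.24%, 2.27% and 2.84% were higher and 2.16%, 1.55% and 2.95% lower. At these shares a list this short would hold few such genes or none. The lack of calls does not show that the genes were unchanged. Nfatc1 had log2 ratios of 0.32, 0.23 and 0.49, and Spi1, which encodes PU.1, had 0.20, 0.25 and 0.57. Fos, a partner of NFATc1, had 0.35, -0.75 and -0.84. None of 6 genes that restrain osteoclast formation passed either, and Irf8, whose product represses Nfatc1, had ratios of 0.75, 0.59 and 0.12.

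None of 13 genes of the general acid secretion machinery passed the rule. Tcirg1, which encodes the a3 subunit of the osteoclast proton pump, had log2 ratios of 0.23, 0.46 and 0.50, and Car2, a carbonic anhydrase that supplies protons, had -0.13, -0.48 and -0.58. None of 9 adhesion and cytoskeleton genes and none of 5 fusion partner genes passed. At the shares of all genes given above, these lists too would hold few calls or none. Medians of these 3 lists lay between -0.08 and 0.10 in the 3 comparisons, beside medians of all genes of -0.01 to -0.02.

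Among 12 other matrix proteases and inhibitors, Mmp13 was the only gene past the rule. It encodes collagenase 3, which osteoblasts and cartilage cells make and which cleaves fibrillar collagen. Mmp13 stood at 62.1 CPM in Sp6 cKO, 83.9 CPM in Sp8 cKO and 111 CPM in Sp6+Sp8 cKO, against 38.5 CPM in wildtype. Its log2 ratios were 0.69, 1.12 and 1.53. The other 11 lay between -0.80 (Cst3, a cathepsin inhibitor) and 0.87 (Timp1, a metalloproteinase inhibitor), both in Sp6+Sp8 cKO.

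Mmp13 was also among the genes whose pattern was most like that of the osteoclast genes. Likeness was the Euclidean distance over the 4 libraries between a gene's centred log2 CPM and the mean centred profile of the 10 genes, among 10087 other protein-coding genes with at least 10 CPM in some library. The 8 nearest were Fam177a, Cry1, Mmp13, Tmem45b, Trim12c, Tagap, Il12rb2 and Acer2, at distances of 0.120 to 0.296. The osteoclast genes themselves were spread around their mean. Dcstamp was nearest, at 0.334, with 13 of the other genes nearer. Oscar lay at 1.01, with 4421 nearer, and Mmp9 at 1.03, with 4933 nearer. Calcr was farthest, at 1.64, with 9886 nearer. The mean profile included Calcr, although it stayed under 1 CPM in every library.

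Markers of other cell types were set beside these results. Their calls against wildtype stand beside 2.24%, 2.27% and 2.84% of all genes higher and 2.16%, 1.55% and 2.95% lower. The 12 macrophage markers summed to 346 CPM in Sp6 cKO, 358 CPM in Sp8 cKO and 297 CPM in Sp6+Sp8 cKO, against 245 CPM in wildtype, and none was at 0. Their median log2 ratios were 0.45, 0.54 and 0.28. The antibody receptor gene Fcgr1 was higher past the rule in Sp6 cKO and Sp8 cKO, and Cx3cr1 was lower past it in Sp8 cKO and Sp6+Sp8 cKO. Fcgr1 stood at 0.644 CPM in wildtype, so it entered these comparisons through the cKO library only. For every 100 counts of macrophage markers the Sp6 cKO library held 77.6 counts of the 10 osteoclast genes, the Sp8 cKO library 111 and the Sp6+Sp8 cKO library 133, against 65.4 in wildtype. The osteoclast sum was thus highest relative to the macrophage markers in Sp6+Sp8 cKO. When libraries were scaled to the macrophage markers instead, a choice made after seeing the data, 2 of the 10 genes passed the rule in Sp8 cKO against wildtype in place of 4, and the median log2 ratio was 0.051 for Sp6 cKO and 0.30 for Sp8 cKO. For Sp6+Sp8 cKO the same scaling gave 5 genes, a median of 1.199 and a ratio of sums of 2.03. This scaling moves all genes of a library alike, and the share of all genes past the rule under it was not computed.

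Neutrophils carry Mmp9 in their granules. The 11 neutrophil markers summed to 117 CPM in Sp6 cKO, 89.1 CPM in Sp8 cKO and 130 CPM in Sp6+Sp8 cKO, against 64.2 CPM in wildtype. S100a8 and S100a9, which keratinocytes also make, were higher past the rule in all 3 cKO libraries, at log2 ratios of 1.78 to 3.24. Without them the sums were 56.8, 51.4 and 45.3 CPM against 53.8 CPM. Among the other 9, the genes went both ways. Csf3r, a cytokine receptor of neutrophils, was higher past the rule in Sp6 cKO and Sp6+Sp8 cKO, at 1.12 and 1.08, and stood at 0.72 in Sp8 cKO. Cxcr2, a chemokine receptor, had log2 ratios of 0.55, -0.38 and 0.50 and did not pass. The granule genes Mpo and Elane were lower past the rule in Sp6+Sp8 cKO, at -1.34 and -1.39, and Camp was lower in Sp8 cKO, at -2.52 from 1 count against 23. Elane had 5 counts there against 23 in wildtype. Both Elane and Camp stood at 1.06 CPM in wildtype and under 1 CPM in the cKO library compared. They thus entered through wildtype only. Ly6g, a defining marker, had at most 8 counts in any library and 0 in Sp6+Sp8 cKO. Wound keratinocyte keratins, which mark another source of Mmp9, summed to 2546, 2432 and 1922 CPM against 2224 CPM in wildtype, with none of the 4 past the rule. The part of neutrophils, keratinocytes, macrophages or other cells in the Mmp9 difference was not tested.

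Markers of bone-forming cells went both ways. The 11 osteoblast and osteocyte markers summed to 12604 CPM in Sp6 cKO, 12045 CPM in Sp8 cKO and 10007 CPM in Sp6+Sp8 cKO, against 12354 CPM in wildtype, with median log2 ratios of 0.04, -0.05 and -0.37. Col1a1 and Col1a2 made up 95.6% to 96.7% of these sums. The other 9 markers summed to 506 CPM in Sp6 cKO, 512 CPM in Sp8 cKO and 445 CPM in Sp6+Sp8 cKO, against 412 CPM in wildtype. Ibsp (bone sialoprotein) had log2 ratios of 0.95, 1.19 and 1.01 and was higher past the rule in Sp8 cKO and Sp6+Sp8 cKO. Bglap, Bglap2 and Sost were lower in Sp6+Sp8 cKO, at -1.56, -1.09 and -1.25. For every 100 counts of the 9 markers without collagen the Sp6 cKO library held 53.1 counts of the 10 osteoclast genes, the Sp8 cKO library 77.7 and the Sp6+Sp8 cKO library 88.7, against 38.98 in wildtype. The 7 erythroid markers summed to 339, 692 and 353 CPM against 267 CPM, the highest sum being that of Sp8 cKO. Hba-a1 and Hba-a2 went opposite ways in Sp6 cKO, at 79.9 against 148 CPM and 180 against 68.1 CPM in wildtype. The median log2 ratios of the 7 erythroid markers were 0.53, 1.05 and 0.12, the first 2 of which exceeded those of the 10 osteoclast genes. Over genes that reached 1 CPM the erythroid medians were 0.42, 1.15 and 0.22, against 0.45, 0.99 and 1.34 for the osteoclast genes. The Sp6 cKO library had 1 of the 7 higher past the rule, the Sp8 cKO library 4 and the Sp6+Sp8 cKO library 1, beside 2.24%, 2.27% and 2.84% of all genes. The part of blood in the osteoclast values was not tested. The 6 megakaryocyte and platelet markers, which touch on Itgb3, summed to 19.6, 21.6 and 16.3 CPM against 20.7 CPM, with Gp9 at 0 in Sp6 cKO. Gp1ba was higher past the rule in Sp6 cKO, at 1.14.

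**Figure D4:**
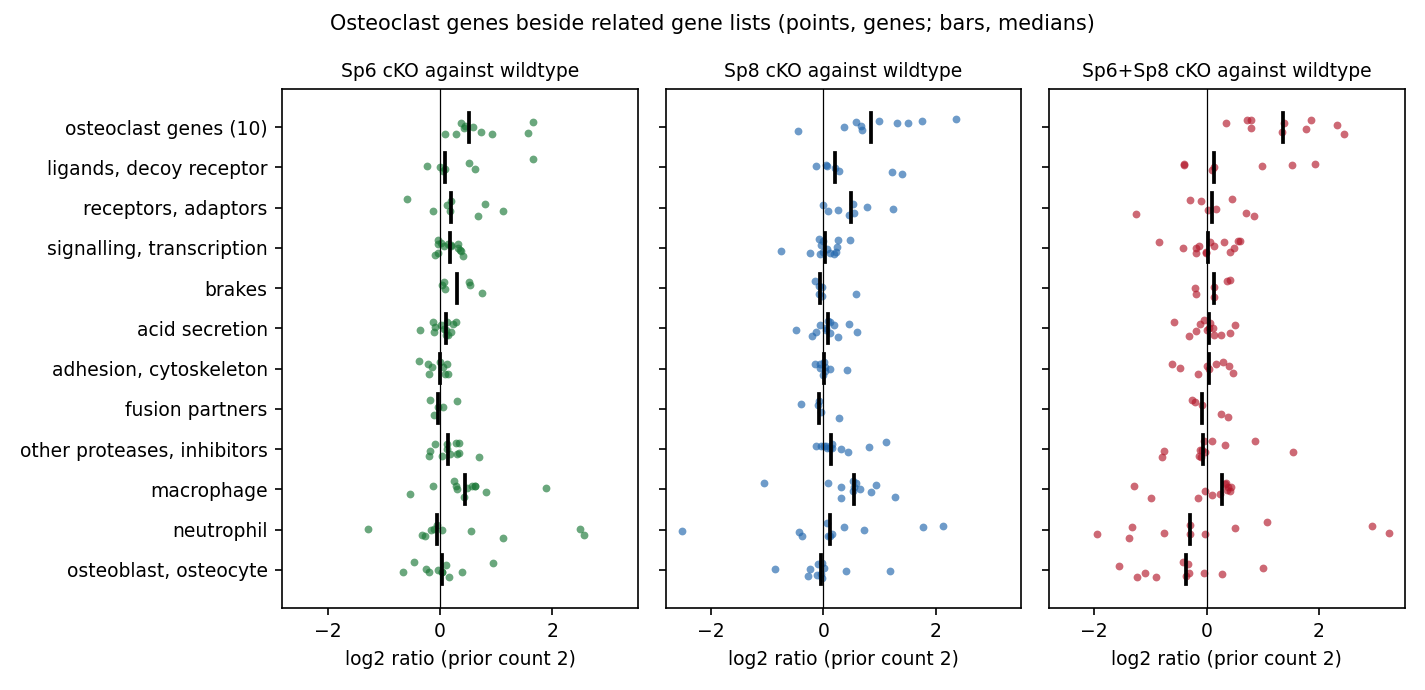
Log2 ratio to the wildtype library (prior count 2) of each gene in 12 lists, with black bars at list medians. The medians of the 10 osteoclast genes are 0.52, 0.85 and 1.36. The erythroid list, with medians of 0.53, 1.05 and 0.12, and the platelet and keratinocyte lists are not drawn.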

How the data were processed

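Bulk RNA came from digit tips cut at the distal interphalangeal joint, and strand-specific poly-A libraries were read from both ends, per the labels' protocols. The authors deposited estimated counts per gene, unscaled for depth, in a table named as merged Salmon output. Besides Salmon and build GRCm38, the submitters' processing notes list deepTools, edgeR, featureCounts, STAR and Trim Galore 0.6.4, with no roles. The sources used here do not name the annotation release. Between 84.6% and 87.1% of values per library were whole, and 1 further column that matches no listed sample was not used.

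Estimated counts were rounded and scaled with TMM factors (edgeR 4.0.16, R 4.3.3). Intervals and ratios were computed in Python 3.11.15 with SciPy 1.17.1, and the procedure was tested on simulated data. Gene positions and exon lengths came from GENCODE M21 on GRCm38, where 98.8% of identifiers were found. Exon length is the union over transcripts, which Salmon does not use. Reads without molecular identifiers are not independent molecules, so intervals may be too narrow. With 1 library per group no test against replicates was possible.

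The members and gene lists were chosen with earlier results of these data known. From each list the genes named were those past the size rule against wildtype, otherwise up to 4 by size, and 8 fixed genes. Other scalings, prior counts, CPM minimums and size thresholds were tried. Planned protein comparisons were not made. The level of 1 marker gene is not reported here.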

Additional observations from a re-analysis of the deposited data

How the results depend on the processing

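No paired analysis was possible because each genotype has 1 library. Scaling by DESeq2 1.42.0 size factors, library totals, totals without the 20 most abundant genes or upper quartiles, and prior counts of 0.5 or 5, left every count of osteoclast genes past the size rule within 1.5 times its main value and reversed no called value. Atp6v0d2 in Sp8 cKO against wildtype crossed the rule, at 1.00, without the 20 most abundant genes and with a prior count of 0.5.

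The CPM minimum and the size threshold mattered more. With at least 5 CPM, Sp8 cKO had 2 genes higher than wildtype and Sp6+Sp8 cKO had 3, beside 0.872% and 1.3% of all genes, and over Sp6 cKO the counts were 0 for Sp8 cKO and 1 for Sp6+Sp8 cKO, beside 0.636% and 0.678%. With a 1.5-fold threshold, Sp6 cKO had 3 genes higher than wildtype, Sp8 cKO 7 and Sp6+Sp8 cKO 8, beside 4.83%, 5.03% and 6.73% of all genes. Over Sp6 cKO the same threshold gave 2 genes for Sp8 cKO and 6 for Sp6+Sp8 cKO, and over Sp8 cKO it gave 2 for Sp6+Sp8 cKO, beside 3.35%, 4.61% and 4.48%. With a log2 threshold of 1.5, the counts over Sp6 cKO were again 0 for Sp8 cKO and 1 for Sp6+Sp8 cKO, beside 0.911% and 0.694%.

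Scaling by the macrophage marker sum, chosen after seeing the data, left 2 genes higher than wildtype in Sp8 cKO, with median log2 ratios of 0.051 in Sp6 cKO and 0.30 in Sp8 cKO. Ctsk and Ocstamp were the genes lost in Sp8 cKO, while Sp6+Sp8 cKO against wildtype had 5 genes and a median of 1.199. The same scaling gave Sp6+Sp8 cKO 5 genes over Sp6 cKO and 2 over Sp8 cKO, where the ratio of sums was 1.199. Scaling by the osteoblast and osteocyte marker sum, also chosen after seeing the data and mostly a scaling to collagen I, gave Sp6+Sp8 cKO 8 genes over wildtype, 5 over Sp6 cKO and 2 over Sp8 cKO, where the ratio of sums was 1.19. That marker sum had a log2 ratio of -0.30 in Sp6+Sp8 cKO against wildtype, so this scaling raised every gene there. The shares of all genes past the rule under the macrophage and bone marker scalings were not computed. Their counts therefore have no background beside them. Without Mmp9, the sums were 1.33-fold (Sp6 cKO), 1.85-fold (Sp8 cKO) and 1.77-fold (Sp6+Sp8 cKO) that of wildtype. No replicate could be left out.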

Other observations

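Some genes of the lists passed the size rule among the batch 1 libraries, and were named after their values were seen. Fcgr1, an antibody receptor of macrophages, had 4 counts in Sp6+Sp8 cKO against 35 in Sp6 cKO, a log2 ratio of -2.87, and 22 in Sp8 cKO, a log2 ratio of -2.27. It stood at 0.26 CPM in Sp6+Sp8 cKO, so it entered both comparisons through the library where it was high. Fos stood at 14.9 CPM in Sp8 cKO and 14.0 CPM in Sp6+Sp8 cKO against 32.3 CPM in Sp6 cKO, at log2 ratios of -1.11 and -1.19. Tnf, an inflammatory cytokine, was higher in Sp6+Sp8 cKO than in Sp8 cKO, at 3.57 against 1.59 CPM and a log2 ratio of 1.11. Siglec15, a receptor of osteoclast precursors, had 3 counts in Sp6+Sp8 cKO against 15 in Sp8 cKO, a ratio of 0.164 (95% interval 0.0304 to 0.579). It reached 1 CPM in Sp8 cKO only, so it entered the comparison through the library where it was high.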
